A study of Mus musculus with 10 samples.

Results

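The section of tumour NEJ634 held an H19-high and an H19-low zone. They were defined from the 1890 spots called over tissue in the deposited position file, by the H19 molecules (UMIs, unique molecular identifiers) in every 10000 UMIs of the spot. Spots at 18.57 or more formed the H19-high zone, 834 spots or 44.1% of the tissue, and spots under 18.57 formed the H19-low zone, 1056 spots or 55.9%. Since H19 chose the spots, its difference between the zones is a description.

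NEJ634 is 1 of 10 sections measured on 10x Genomics Visium slides, where polyadenylated RNA of a frozen section is captured on barcoded spots. The study bred Alb-Cre;CAG-Myc mice (ABC-Myc) on a C57BL/6J background, in which Cre under the albumin promoter switches on a MYC transgene in the hepatocyte lineage and multifocal hepatoblastoma-like liver tumours form. The labels call NEJ634 a hepatoblastoma from frozen mouse liver and give neither age nor treatment, so the zones share animal, transgene, slide and library. Each spot covers several cells, often of more than 1 type, and all values describe spots and their sums. There is 1 section of this tumour, so no test between zones was made.

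H19 is a long noncoding RNA of an imprinted domain. Imprinted genes are read from the copy of one parent only, H19 from the maternal copy and its neighbour Igf2, a fetal growth factor, from the paternal copy. A region between them binds the insulator protein CTCF on the maternal chromosome and is methylated on the paternal one. H19 is abundant in fetal liver, is switched off after birth, and can be expressed again in liver tumours. The domain lies beside a second imprinted cluster, which holds the cell cycle inhibitor Cdkn1c and the growth-restraining gene Phlda2 and is controlled by the noncoding RNA Kcnq1ot1.

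In the H19-high zone the spots ranged from 18.6 to 79.2 H19 UMIs in 10000, with a median of 51.0, and in the H19-low zone from 1.21 to 18.3, with a median of 7.10. The values nearest the limit were 18.1 and 18.3 below it and 18.6 and 18.7 above it. The limit came with the definition of the zones and was not derived again here. Spots between 0.5 and 2 times the limit numbered 419, or 22.2% of the tissue. No tissue spot was without H19, and the fewest UMIs in a spot was 1.

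**Figure D1:**
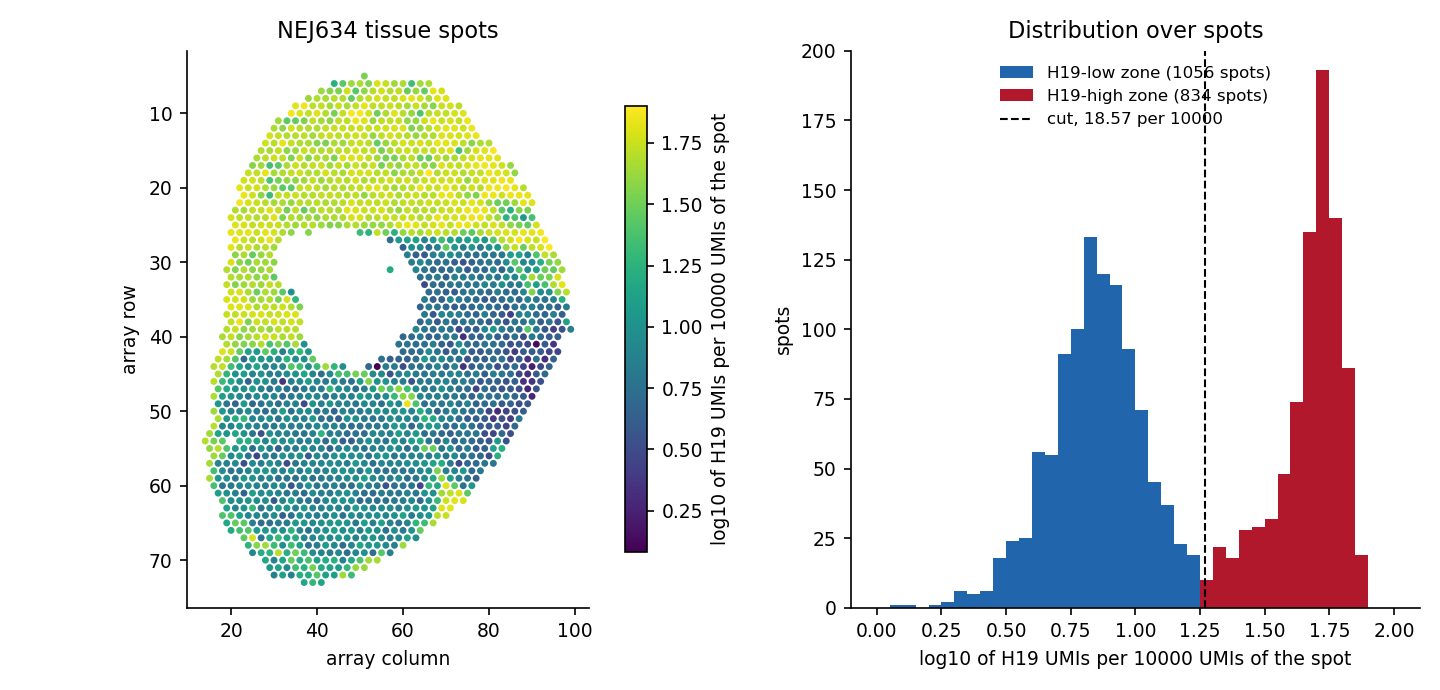
H19 in the NEJ634 section. Left, each point is a tissue spot at its array column and row, coloured by log10 of H19 UMIs in 10000 UMIs of the spot. Right, the number of spots by the same value, with the dashed line at 18.57 between the H19-low zone (1056 spots) and the H19-high zone (834 spots). The high zone fills the upper part of the section and the low zone the lower part and the right side, with 2 peaks in the distribution.

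The map of H19 over the section shows a connected region for each zone. The largest connected H19-high patch held 738 spots and the largest H19-low patch 1046, and the adjacent tissue spots of a spot belonged to its own zone in 91.0% of cases in the high zone and 93.05% in the low zone. A further 96 high-zone spots lay outside the largest high patch, 42 of them at the tissue margin with fewer than 6 adjacent tissue spots, and these reached 3752 CPM (UMIs of a gene in 1e6 UMIs) of H19 against 5226 CPM in the patch. The section was divided at its median array column into a left and a right part of about equal size, used below as a check within the section. The left part held 462 high and 468 low spots and the right part 372 and 588. Divided at the median array row instead, the upper part held 714 high and 220 low spots and the lower part 120 and 836.

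Depth differed between the zones. The H19-high zone summed to 27785162 UMIs with a median of 32402.5 UMIs and 6118.5 genes in a spot, and the H19-low zone to 28750950 UMIs with medians of 25503 and 5669.5. The median mitochondrial share of UMIs was 3.73% in the high and 2.85% in the low zone. The 3102 spots called off tissue held 38.1% of the UMIs of the slide, with H19 at 2921 CPM. At 1 grid step off the tissue, the 74 spots nearest to the low zone had H19 at 873 CPM and the 142 spots nearest to the high zone at 3480 CPM. The low-zone gene Cldn7 stood at 228 CPM in the former and 66.5 CPM in the latter. The part of spread RNA or of missed tissue in these spots, and in the levels beside the border of the zones, was not tested.

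H19 (ENSMUSG00000000031, GRCm38 chromosome 7, 142575529 to 142578143, minus strand) reached 4844 CPM in the left and 5327 CPM in the right part of the high zone, and 878 and 648 CPM in those of the low zone. The zone sums were 141586 UMIs (5096 CPM) and 20760 UMIs (722 CPM), a fold of 7.06 (95% interval 6.96 to 7.16). Intervals of zone ratios are exact Clopper-Pearson intervals and cover counting error only. In all sums over spots, fewer cells of a type and less RNA in each cell cannot be told apart.

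The gene lies within the same region of chromosome 7 as the precursor of miR-675, which is cut from the H19 transcript. Its mature forms, at chr7:142577112-142577133 and chr7:142577078-142577099 (GRCm38.p6, minus strand), were not measured by this assay of polyadenylated RNA. They are shown from RefSeq because H19 is their source, with the seed (bases 2 to 8) in capitals.
mmu-miR-675-5p: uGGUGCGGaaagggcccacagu
mmu-miR-675-3p: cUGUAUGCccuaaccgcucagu

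Over the whole section, and with library totals as the scale, the other genes of distal chromosome 7 listed here as imprinted divided by the parental copy that is read. Of genes of at least 1 CPM within 1 Mb of H19, Cdkn1c, Slc22a18, Phlda2 and H19 are listed as read from the maternal copy. H19 is set aside, since it defined the zones. The 3 others were all more than 1.5-fold higher in the H19-high zone, against 7.77% of all 12903 genes of at least 1 CPM. The 3 read from the paternal copy were all more than 1.5-fold higher in the H19-low zone, against 10.6%. The 13 neighbours of at least 1 CPM that are not listed as imprinted ranged from −1.80 to 0.42 on the log2 scale of high over low. None was past 1.5-fold in the high zone and 3 were in the low zone, Gm33148 (−1.80, from 22 and 79 UMIs), Lsp1 (−0.64) and Tnni2 (−0.63, from 25 and 40 UMIs). The 8 of at least 10 CPM ranged from −0.64 to 0.21. The assignment to parental copies is textbook knowledge, entered after the values were known, and the reads themselves do not show which copy was read.

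Cdkn1c, the inhibitor of cyclin-dependent kinases also called p57, was at 33.4 and 43.7 CPM in the left and right parts of the high zone and at 5.18 and 3.85 CPM in those of the low zone. The parts of the zones did not overlap, and the fold was 9.06 (7.51 to 11.01). Slc22a18, a transporter-like membrane protein, was at 25.3 and 24.6 CPM in the high zone and 5.93 and 4.62 CPM in the low zone, a fold of 4.95 (4.13 to 5.96). Phlda2, which restrains placental growth, was at 14.6 and 17.4 CPM in the high zone and 3.56 and 3.95 CPM in the low zone, a fold of 4.19 (3.39 to 5.21). Its level over all tissue spots was 9.82 CPM, just under the minimum of 10 CPM set for the counts of genes below.

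Igf2 went the other way at a smaller size, with 215 and 198 CPM in the parts of the high zone and 335 and 321 CPM in those of the low zone. It was 1.58-fold (1.53 to 1.63) higher in the low zone. Its log2 ratio of high over low, −0.66, came under 1.5-fold at −0.54 after TMM (trimmed mean of M-values) and −0.56 after median-of-ratios scaling, which use most genes instead of the totals, and −0.57 at 0.5 times the H19 limit, with the same direction. It was −0.65 above the median array row and −0.42 below it. Igf2os, transcribed from the opposite strand of Igf2, was 1.97-fold (1.75 to 2.23) higher there, and Kcnq1ot1 2.02-fold (1.58 to 2.59) from 100 and 209 UMIs. Below the median row Igf2os was at −0.33, and above it Kcnq1ot1 was at −0.57, both under 1.5-fold. Igf2 and Igf2os overlap, as do Kcnq1 and Kcnq1ot1, and the use of strand in the counting is not given in the sources used here, so reads of such a pair cannot be told apart. Ins2 and Ascl2 had 25 and 4 UMIs over the tissue, too few for a comparison.

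**Figure D2:**
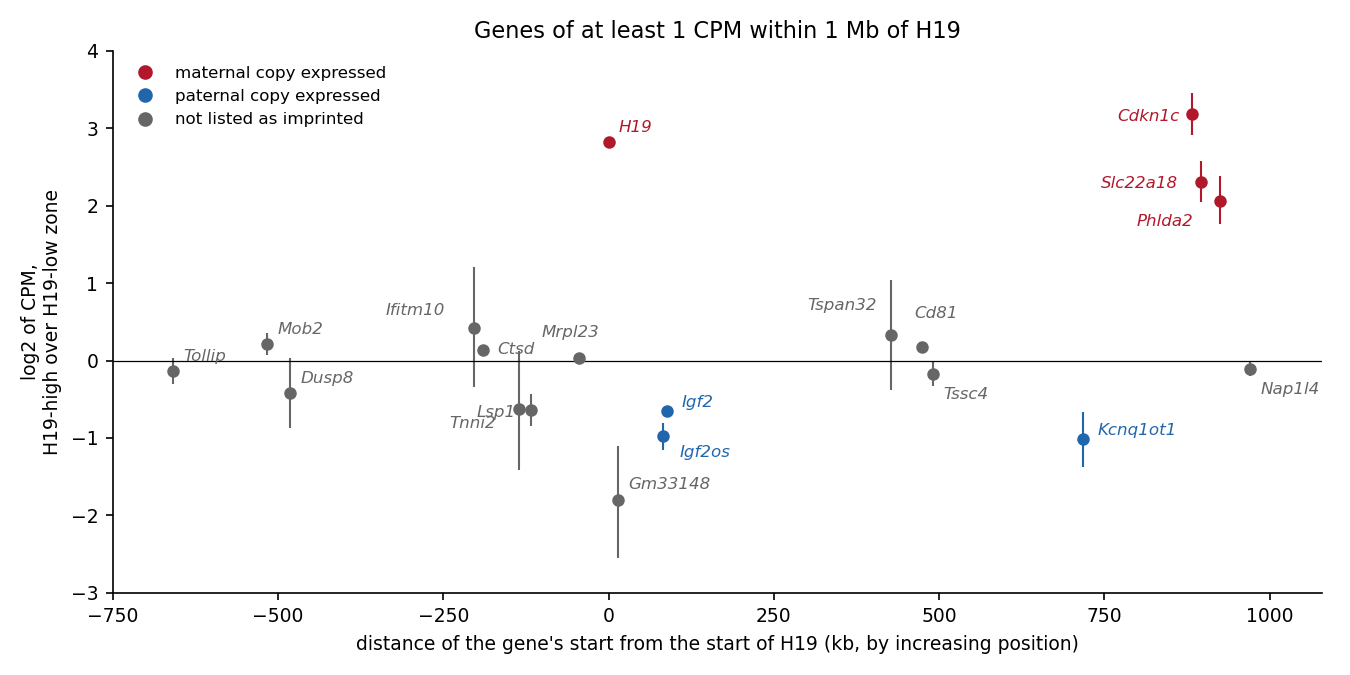
Genes of at least 1 CPM within 1 Mb of H19, by distance of the gene's start from that of H19 in kb, with log2 of the CPM ratio of the H19-high over the H19-low zone on the vertical axis. Bars are 95% counting intervals and colours give the parental copy known to be expressed. H19, Cdkn1c, Slc22a18 and Phlda2 lie between 2.07 and 3.18, while Igf2, Igf2os and Kcnq1ot1 lie between −1.01 and −0.66.

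The plot of the domain shows Cdkn1c, Slc22a18 and Phlda2 above all genes that are not listed as read from the maternal copy. Whether the list misses imprinted genes among these neighbours was not checked. H19 is above them too, but it defined the zones. The paternal genes lie among the lower of the genes not listed as imprinted. The promoter sequences of imprinted genes from RefSeq (GRCm38.p6, 250 bases before to 50 after the start) are shown because methylation of CG pairs is the usual carrier of imprints, and CG pairs are in capitals. Methylation was not measured. For Igf2, which has 4 start sites in the table, the promoter with most CG pairs is given.
Phlda2, chr7:143502475-143502774, minus strand: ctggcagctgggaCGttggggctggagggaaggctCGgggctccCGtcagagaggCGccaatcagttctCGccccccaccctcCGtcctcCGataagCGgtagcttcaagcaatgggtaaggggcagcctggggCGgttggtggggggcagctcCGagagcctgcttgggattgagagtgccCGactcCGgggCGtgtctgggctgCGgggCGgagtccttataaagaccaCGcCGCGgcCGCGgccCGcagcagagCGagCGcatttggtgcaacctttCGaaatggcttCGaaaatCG
Slc22a18, chr7:143473539-143473838, plus strand: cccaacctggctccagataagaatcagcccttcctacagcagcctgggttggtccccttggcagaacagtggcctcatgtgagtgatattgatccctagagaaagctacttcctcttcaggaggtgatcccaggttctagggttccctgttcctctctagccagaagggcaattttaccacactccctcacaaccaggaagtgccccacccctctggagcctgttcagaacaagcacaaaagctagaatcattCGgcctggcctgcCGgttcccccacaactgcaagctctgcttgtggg
Kcnq1ot1, chr7:143296498-143296797, minus strand: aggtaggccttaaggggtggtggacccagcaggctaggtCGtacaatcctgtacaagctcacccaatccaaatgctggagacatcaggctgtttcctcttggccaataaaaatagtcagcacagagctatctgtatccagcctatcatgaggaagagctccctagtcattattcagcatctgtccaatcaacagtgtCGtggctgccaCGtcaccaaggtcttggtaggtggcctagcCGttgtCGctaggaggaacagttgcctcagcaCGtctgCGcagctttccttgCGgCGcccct
Igf2, chr7:142658755-142659054, minus strand: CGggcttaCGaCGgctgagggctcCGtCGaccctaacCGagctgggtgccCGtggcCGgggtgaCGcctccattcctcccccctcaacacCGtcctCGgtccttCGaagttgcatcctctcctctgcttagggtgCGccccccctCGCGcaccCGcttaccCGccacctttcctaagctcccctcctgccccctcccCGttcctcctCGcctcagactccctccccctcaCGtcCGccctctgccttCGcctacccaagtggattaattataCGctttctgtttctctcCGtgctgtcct

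The Phlda2 promoter held 26 CG pairs, a number reached by 16.9% of all promoters of the table, and that of Slc22a18 held 2, reached by 85.9%. Those of Igf2 and Kcnq1ot1 held 24 and 9, reached by 19.98% and 45.8%. The Igf2 number is the highest of its 4 start sites, while the promoters it is set beside were not chosen so. The maternal genes thus include a CG-rich and a CG-poor promoter.

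Imprinted genes elsewhere in the genome did not divide this way. Of 6 maternally expressed genes of at least 1 CPM, 1 was past 1.5-fold higher in the high zone (Asb4, log2 1.46), against 7.77% of all 12903 genes of at least 1 CPM, and 3 in the low zone, against 10.6%. These were Zim1 (−1.36), Meg3 (−0.90) and Mirg (−0.75). Of 14 paternally expressed genes, 2 were higher in the high zone, Peg10 (0.93) and Ndn (0.91), and 7 in the low zone. Among the 7 were Nnat (−2.10), Plagl1 (−1.36), Dlk1 (−1.26) and Mest (−1.21), genes of fetal growth and development. The list of the imprinted network tied to H19 in mice had 14 members of at least 10 CPM, with a median of −0.26. Of these, 3 were higher in the high and 6 in the low zone, against 5.93% and 5.85% of all 8537 genes of that level.

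Over the whole transcriptome, 8537 genes reached 10 CPM over the tissue. A ratio of at least 1.5 was the threshold for calling a gene, and 506 genes (5.93%) were higher in the H19-high zone and 499 (5.85%) in the H19-low zone. All 506 and all 499 had the same direction in both parts of the section by array column. The genes were called on the sum of these parts, so this agreement partly follows from the call. The threshold was passed in both parts by 425 (4.98%) and 396 (4.64%). Fewer genes passed it both above and below the median array row, as given with the other settings at the end. The sides differed in size more than in number, since 231 genes were at least 2-fold and 66 at least 4-fold higher in the high zone, against 138 and 6 in the low zone. The median log2 ratio over all genes tested was −0.10. Medians by chromosome lay between −0.14 and −0.05, so no chromosome as a whole stood apart. Scaling by the trimmed mean of M values (TMM) moved all ratios up by 0.113. The share of called genes that were higher in the high zone was 50.3% by library totals, 66.8% after TMM and 64.7% by the median of ratios.

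**Figure D3:**
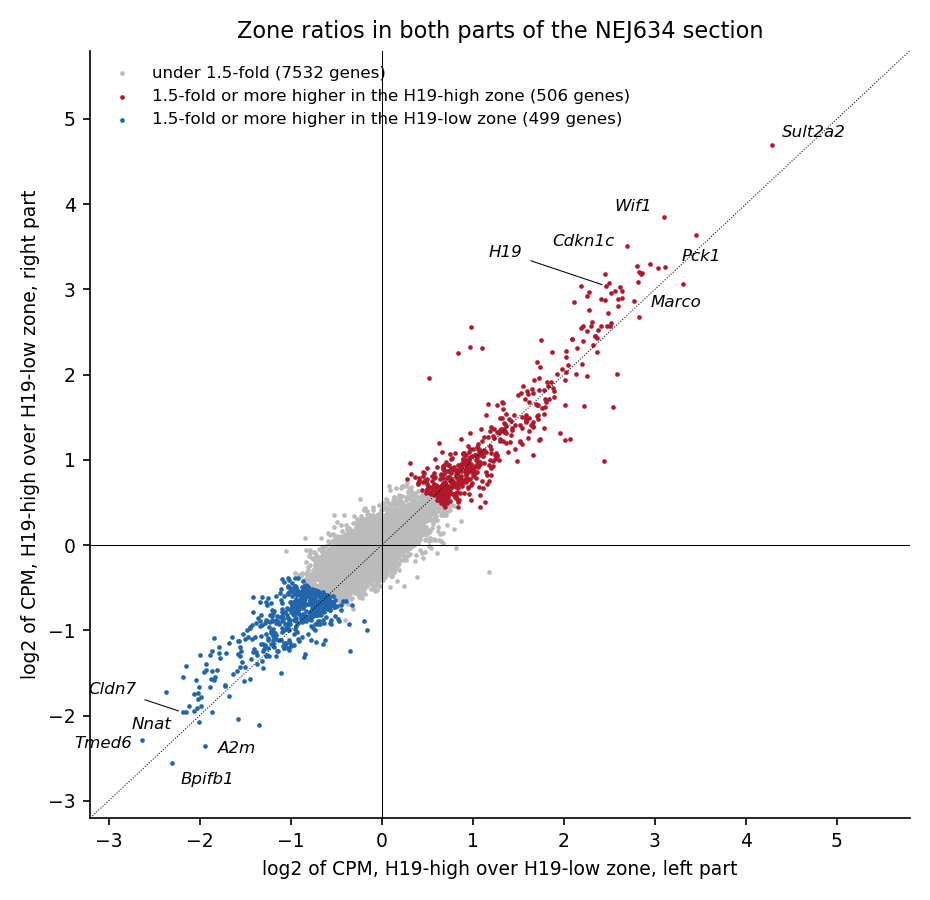
Log2 of the CPM ratio of the H19-high over the H19-low zone for genes of at least 10 CPM, in the left part (horizontal) and right part (vertical) of the section. Red points are the 506 genes and blue points the 499 genes at least 1.5-fold higher in the high and the low zone, grey points the other 7532, and the dotted line marks equal ratios. Red points reach further from 0 than blue points, and every called gene has the same sign in both parts.

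The plot of ratios in both parts shows the named genes at its ends. Sult2a2, a sulfotransferase of bile acids and steroids, led the high zone with 65.1 and 50.5 CPM in its left and right parts against 3.34 and 1.95 CPM in the low zone, a fold of 23.9 (18.8 to 30.9). Sult2a5 and Sult2a1 of the same family were 12.5-fold and 8.54-fold higher. These copies are nearly identical in sequence, as are members of the Cyp2c, Cyp4a, Saa and globin families, so the split of reads within such a family is uncertain.

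Wif1, a secreted inhibitor of Wnt ligands, was at 23.2 and 19.9 CPM in the parts of the high zone and 2.70 and 1.39 CPM in the low zone, 11.9-fold (8.94 to 16.1). Pck1, the enzyme that commits carbon to gluconeogenesis, was at 380 and 274 CPM against 44.0 and 28.6 CPM, 9.68-fold (9.05 to 10.4). The oxidising enzymes of fat, drugs and steroids followed, Cyp4a14 at 9.34-fold, Hsd17b6 at 9.34-fold, Cyp2c37 at 9.23-fold and Cyp2a5 at 8.81-fold. The list of 12 also holds Cdkn1c and a pair of Kupffer cell receptors. Vsig4, a receptor for complement, was at 89.6 and 89.3 CPM against 12.8 and 9.24 CPM, and the scavenger receptor Marco at 295 and 249 CPM against 41.9 and 29.3 CPM.

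At the other end, Bpifb1, a secreted protein of mucosal surfaces, was at 26.0 and 35.5 CPM in the parts of the low zone and 5.26 and 6.01 CPM in the high zone, 5.74-fold (4.84 to 6.84) higher in the low zone. Tmed6, of a family that carries cargo between endoplasmic reticulum and Golgi, was 5.41-fold higher. A2m, a plasma protease inhibitor, was at 403 and 483 CPM against 105 and 93.9 CPM, 4.61-fold (4.42 to 4.80). Cldn7, a tight junction protein of ducts and epithelia, was at 285 and 281 CPM against 62.5 and 72.2 CPM, 4.18-fold (3.97 to 4.40).

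The remaining genes of that list of 12 lay between 3.74-fold and 4.28-fold. They were Nnat, the mitotic regulator Pimreg, the surface glycoprotein Thy1, Cyp2s1, the cadherin Cdh17, the claudin Cldn18, the squamous epithelial gene Sprr1a and the tubulin Tubb2b. Folds of the 12 depended on array row. Above the median row the log2 ratios ran from −2.86 to −1.998, and below it, where the high zone had 120 spots, from −1.40 to −0.29, with Cldn18 (−0.29), Cdh17 (−0.33) and Thy1 (−0.53) under 1.5-fold. The 12 leading high-zone genes had 1.22 to 3.61 below the median row. The rule that named the genes of both lists asked for 1.5-fold in the left and the right part, so the lack of overlap between their parts follows from that choice.

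In the following lists of mature hepatocyte metabolism, the genes that passed 1.5-fold were higher in the H19-high zone. For every list described, the shares over all genes tested were 5.93% in the high and 5.85% in the low zone. Of 15 genes of bile acid synthesis and transport of at least 10 CPM, 15 were past 1.5-fold higher there and 0 in the low zone, with a median log2 ratio of 1.51 against −0.10 over all genes tested. They included the uptake transporter Slco1b2 (2.28), the conjugating enzymes Slc27a5 (2.17) and Baat (2.03), and Cyp7a1 (1.93), the rate-limiting enzyme of bile acid synthesis. Of 23 genes of drug metabolism, 20 were higher in the high zone, with a median of 1.45. Of 23 genes of the urea cycle and amino acid breakdown, 15 were higher, with a median of 0.81, from Tdo2 (2.86) and Tat (2.52), which open the breakdown of tryptophan and tyrosine, to Cps1 (1.28), the entry enzyme of the urea cycle.

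Genes of both ends of the liver lobule that passed 1.5-fold were higher in the high zone. Of 10 pericentral genes 7 were higher in the high zone (median 1.77) and 0 in the low zone, with Cyp2e1 at 126 against 16.8 CPM (log2 2.91), Gulo at 2.71, Cyp1a2 at 2.70 and Lect2 at 2.56. Of 14 periportal genes 9 were higher in the high zone (median 0.81) and 0 were past 1.5-fold in the low zone, led by Pck1 (3.27), Cyp2f2 (2.07) and the glucose-releasing phosphatase G6pc (1.93). Of 20 targets of the fatty acid sensor PPAR-alpha and genes of fatty acid oxidation, 9 were higher, and of 16 apolipoproteins 6, with none of either list past 1.5-fold in the low zone. Apoa5, a regulator of plasma triglycerides, was at 631 against 105 CPM (log2 2.58).

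Of 28 secreted hepatocyte proteins 4 were higher in the high zone, 2 in the low zone and 22 in neither (median −0.13). The shares of all genes tested were 5.93% in the high and 5.85% in the low zone. Albumin was at 10983 CPM in the high and 15207 CPM in the low zone (log2 −0.47), and the 5 hepatocyte markers used to check the tissue summed to 28040 and 37092 CPM. They were thus abundant in both zones. Of 19 hepatocyte transcription factors (median 0.28) 4 were higher in the high zone, among them the drug receptor Nr1i3 (2.32) and the bile acid-induced repressor Nr0b2 (1.11), and 2 were higher in the low zone, among them Foxa1 (−1.01).

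**Figure D4:**
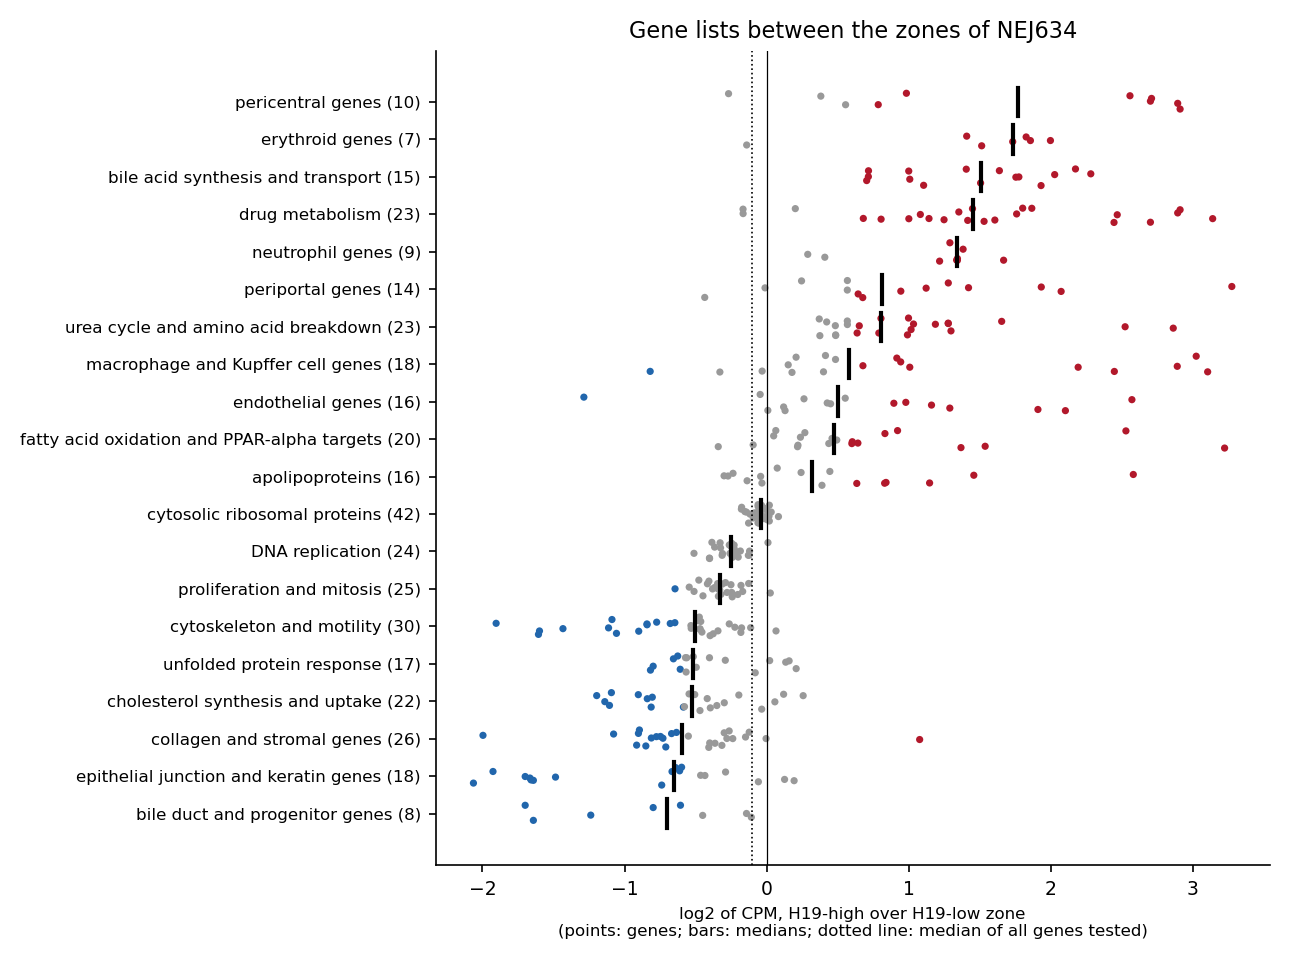
Log2 of the CPM ratio of the H19-high over the H19-low zone for the genes of 20 lists, with the number of genes of at least 10 CPM in parentheses. Each point is a gene (red or blue where at least 1.5-fold higher in the high or low zone), bars are list medians and the dotted line is the median of all genes tested, −0.10. Medians run from 1.77 for pericentral genes to −0.70 for bile duct and progenitor genes.

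The plot of the lists also holds blood and vessel genes. Of 18 macrophage and Kupffer cell genes 9 were higher in the high zone and 1 in the low zone (median 0.58). Those with the largest ratios mark resident Kupffer cells, Vsig4 (3.10), Marco (3.02), Clec4f (2.89) and Timd4 (2.45). C1qa, made by macrophages in general, was at 178 against 135 CPM, but it was named after its value was seen. It does not stand for general macrophage genes, since all 9 macrophage and Kupffer cell markers were higher in the high zone, 6 of them past 1.5-fold. Of 16 endothelial genes 7 were higher in the high and 1 in the low zone (median 0.50). The sinusoidal genes Clec4g (2.57), Lyve1 (2.10) and Oit3 (1.91) were among the former, Cd34, of capillary endothelium, was the latter (−1.29), and the general marker Pecam1 was at 17.3 against 16.0 CPM.

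Neutrophil and erythroid genes were higher in the high zone but uneven over the section. Of 9 neutrophil genes 7 were higher (median 1.34), and the 7 neutrophil markers summed to 680 and 1329 CPM in the left and right parts of the high zone and to 197 and 481 CPM in those of the low zone. The low zone at right was thus nearer to the high zone at left than to the low zone at left. Of 7 erythroid genes 6 were higher, with a median of 0.97 in the left and 2.26 in the right part. Hba-a1, an adult globin, was at 164 and 453 CPM in the high and 83.4 and 76.7 CPM in the low zone. In the 96 high-zone spots outside the largest patch it reached 818 CPM, against 266 CPM in the patch.

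The summed markers of macrophages and Kupffer cells, 6 of 9 past 1.5-fold in the high zone, were at 1780 and 1714 CPM in its parts and 764 and 717 CPM in the low zone. Those of endothelium, 3 of 6 past 1.5-fold, were at 164 and 147 against 86.3 and 78.5 CPM. T cell markers summed to 9.39 and 18.2 CPM, B cell markers to 1.44 and 0.77 CPM and mesothelial markers to 3.53 and 2.75 CPM in the high and low zone, and no marker of these types was at 0. The part of a different mix of cells in the ratios of the other genes was not tested.

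Epithelial structure genes that passed 1.5-fold were higher in the H19-low zone. Of 18 genes of epithelial junctions and keratins 12 were past 1.5-fold higher there and 0 in the high zone, with a median of −0.65. Besides Cldn7 and Cdh17 they included Krt7 (19.4 CPM in the high and 63.0 in the low zone) and Epcam (26.0 and 82.5 CPM). Of 8 bile duct and progenitor genes 5 were higher in the low zone (median −0.70), and of 30 genes of the cytoskeleton and motility 13, among them Tmsb10, which binds actin monomers (417 and 1269 CPM), S100a6 (log2 −1.60) and Ezr (−1.43).

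The bile duct markers Krt19, Krt7, Sox9 and Spp1 summed to 339 CPM in the high and 537 CPM in the low zone. Their part in the other epithelial genes was not tested.

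Of 26 collagen and stromal genes 13 were higher in the low zone (median −0.59) and 1, Dcn (1.08), in the high zone. Serpinh1, a collagen chaperone, was at −1.08 and Col1a1 at 214 against 403 CPM. The stromal markers summed to 1344 CPM in the high and 1764 CPM in the low zone.

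Lipid synthesis genes that passed 1.5-fold were, with the exception of Thrsp, higher in the low zone. Of 22 genes of cholesterol synthesis and uptake 9 were higher there and 0 in the high zone (median −0.53). They included the synthesis enzymes Sqle (log2 −1.14), Mvd (−1.11) and Pmvk (−1.09). Of 15 genes of fatty acid synthesis 6 were higher in the low zone, led by the desaturase Scd2 (550 and 1301 CPM), and 1 in the high zone, Thrsp (1.84). Of 17 genes of the unfolded protein response 5 were higher in the low zone (median −0.52).

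Growth machinery genes mostly stayed under 1.5-fold. Of 25 proliferation and mitosis genes 1 was past 1.5-fold, in the low zone, against 5.85% of all genes tested. Their log2 ratios ran from −0.64 to 0.03 with a median of −0.33. They summed to 2310 CPM in the high and 2995 CPM in the low zone, and Mki67 was at 144 against 191 CPM. Pimreg, not on this list, was 4.00-fold higher in the low zone. None of 24 DNA replication genes (median −0.25, from −0.51 to 0.01) passed 1.5-fold in either direction, and none of 42 cytosolic ribosomal protein genes did. The ribosomal median was −0.04, which after the TMM shift lies above 0.

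Among the markers the study followed in its tumours, the stem cell markers Epcam and Dlk1 were higher in the low zone. Epcam was 3.17-fold (2.92 to 3.45) and Dlk1, an imprinted surface protein of hepatoblasts, 2.40-fold (2.27 to 2.54) higher there, with 154 and 150 CPM in its parts and 65.3 and 61.0 CPM in the high zone. Afp, the fetal counterpart of albumin, was 1.68-fold (1.66 to 1.69) higher in the low zone. Gpc3 was at 5.51 and 9.43 CPM. The pericentral glutamine synthetase Glul was 1.98-fold (1.87 to 2.10) higher in the high zone.

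Within the insulin-like growth factor axis, 2 of 13 genes were higher in the high zone and 3 in the low zone, against 5.93% and 5.85% of all genes tested. The binding proteins Igfbp1 (680 and 207 CPM) and Igfbp2 (1213 and 439 CPM) were the former, and the receptor Igf1r (log2 −1.22) was among the latter with Igf2. Of the published classifier of human hepatoblastoma, 4 of 8 genes of the differentiated class C1 were higher in the high zone (median 0.68), and 2 of 7 genes of the proliferative class C2 in the low zone (median −0.33).

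The border between the largest patches separated genes by the shape of their profile. Distance was counted in grid steps from the other patch. Since the patches were cut by H19, a step of H19 at the border follows from the rule. H19 was at 1083 CPM in the last low step and 3867 CPM in the first high step, then at 5575 CPM at 2 steps and 5177 CPM at 12 or more. Cdkn1c followed it, at 8.93 CPM on the low and 36.7 CPM on the high side of the border and 36.6 CPM at 12 or more steps. Slc22a18 and Igf2 likewise differed across the border and by less than 1.5-fold beyond it. In the low patch, Vsig4 and Cdkn1c were 1.68-fold (1.19 to 2.34) and 2.26-fold (1.37 to 3.62) higher at 1 to 2 steps than at 8 or more, from low counts. In the high patch the ratio of depth (8 or more steps) to edge (2 to 4 steps) was 1.07 (0.95 to 1.20) for Vsig4 and 0.76 (0.65 to 0.90) for Cdkn1c.

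**Figure D5:**
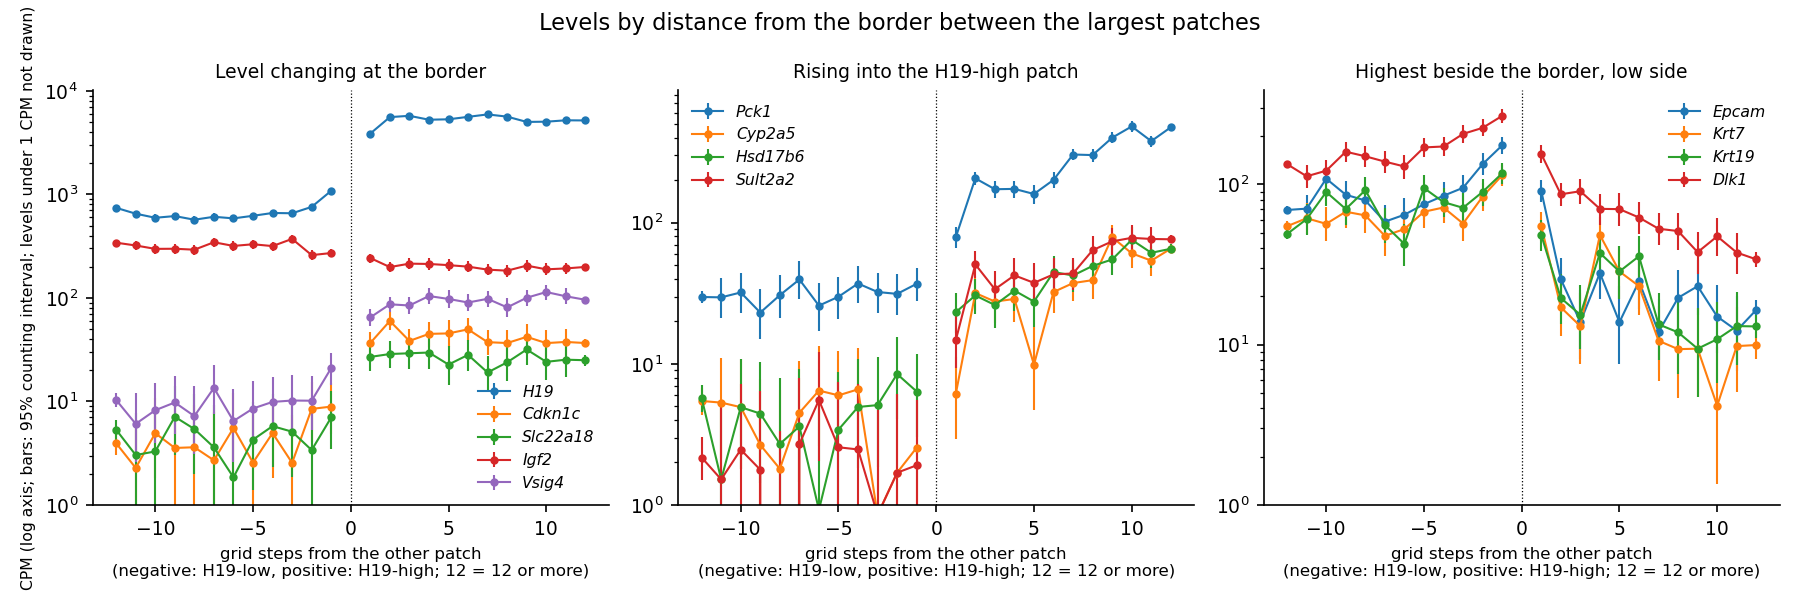
CPM (log axis) by grid steps from the other zone's largest patch, with negative steps in the H19-low and positive steps in the H19-high patch, and the last point on each side pooling 12 steps or more. Bars are 95% counting intervals and levels under 1 CPM are not drawn. H19, by which the patches were cut, goes from 1083 to 3867 CPM across the border. Pck1 goes on to 475 CPM in the depth of the high patch, and Dlk1 peaks at 267 CPM in the low patch beside the border.

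The profiles by distance show a second class of genes that were higher in the depth of the high patch than near its edge. Between the 116 spots at 2 to 4 steps and the 463 spots at 8 or more, 72 of all genes tested (0.843%) were at least 1.5-fold higher in the depth and 83 (0.972%) lower. Among the 506 high-zone genes 47 (9.29%) were higher in the depth and 5 (0.988%) lower, with a median ratio of 1.12. Pck1 was at 186 and 450 CPM, 2.41-fold (2.24 to 2.60), and Hsd17b6, Cyp2a5 and Sult2a5 were 2.14-fold, 2.14-fold and 2.06-fold higher in the depth. Saa2 and Saa1, acute phase proteins, were 3.36-fold and 2.76-fold higher, and the neutrophil granule gene Camp 2.95-fold. H19 itself was at 5537 and 5189 CPM and was not part of this class.

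A further class peaked on the low side of the border. Between the 99 spots at 1 to 2 steps and the 754 spots at 8 or more in the low patch, 189 of all genes tested (2.21%) were at least 1.5-fold higher at the edge and 69 (0.808%) lower. Of the 499 low-zone genes 76 (15.2%) were higher at the edge, against 85 of the 7532 genes of neither zone (1.13%). They included Cdh17, at 46.5 against 19.2 CPM, Epcam, at 157 against 73.2 CPM, Krt19, at 105 against 55.8 CPM, Krt7, at 101 against 56.6 CPM, and Dlk1, at 249 against 134 CPM. Bpifb1, Tmed6 and A2m, the leading genes of the low zone, had ratios of edge to depth of only 1.17, 1.02 and 0.95.

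Inside the high patch, 59 of the low-zone genes (11.8%) were lower in the depth than near the edge. Dlk1 was at 155 CPM in the first high step and 34.0 CPM at 12 or more. The part of RNA carried across the border in these profiles was not tested.

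Over the 1890 spots, the levels most like H19 were those of Apoa5 (Pearson r = 0.831), Gpx1 (0.795), Marco (0.758), Cps1 (0.758) and Cd5l (0.751). The most opposed were A2m (−0.757), Serpina1e (−0.737), Tmsb10 (−0.711), Cldn7 (−0.710) and Scd2 (−0.708). The spots share a library and a scaling to their own depth, and the correlations describe this section alone. Within a zone the values were smaller, with 0.313 for Apoa5 in the high and 0.273 in the low zone. Tmsb10 kept −0.590 within the high zone and had 0.307 within the low zone.

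Promoters were searched on both strands for 6 short motifs in the 300 bases around the RefSeq start, 383 of the 506 high-zone genes and 361 of the 499 low-zone genes having one in the table. The TATA box letters TATAAA were in 17.8% of high-zone and 9.14% of low-zone promoters, against 7.05% of the promoters of genes tested and 14.2% of all promoters. The letters CAAAGT, of the hepatocyte factor HNF4, were in 18.3% and 12.2%, against 11.8% of genes tested and 14.3% of all. GTTAAT, of HNF1, was in 6.79% and 4.71%, against 4.30% and 7.20%. TGANTCA, of AP-1, was in 8.09% and 6.09%, against 4.67% and 7.93%. The letters CACGTG, bound by MYC and other E-box factors, were in 9.14% and 10.2%, against 11.1% of genes tested and 7.24% of all, and GGAATG, of TEAD, in 11.5% and 13.3%, against 11.7% and 14.6%. A match shows letters and not binding.

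The other sections place the zones among whole tissues. Summed over tissue spots, H19 was at 11.96 CPM in NEJ723 and at 9068 CPM in NEJ687. In the 4 adjacent sections of NEJ146, summed over spots of at least 10000 UMIs without a tissue call, it was between 5483 and 6520 CPM. These are the other sections that the study's text calls tumours. In the remaining tissues NEJ638, NEJ654 and NEJ677 H19 was at 80.2, 6.31 and 4.86 CPM. The labels call all 10 sections hepatoblastoma, but the study's text counts 4 tumours, which it names, and 3 healthy livers in its spatial data. By elimination, these 3 tissues are the livers. Afp was at 3.79 to 9.63 CPM in them and at 1546 to 4248 CPM in the tumour sections. With H19 at 722 and 5096 CPM, the zones of NEJ634 lay between NEJ723 and the NEJ146 sections.

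The 3 maternally expressed partners were, like H19, lowest in NEJ723 and highest in NEJ687 among the tumours. Cdkn1c was at 0.53 CPM in NEJ723, 52.2 CPM in NEJ687 and 39.7 to 46.9 CPM in NEJ146, and the zones had 4.28 and 38.8 CPM. Phlda2 was at 0.07, 34.0 and 16.2 to 20.7 CPM. Slc22a18 was at 0.39, 54.6 and 21.7 to 37.4 CPM, but at 65.7 to 105 CPM in NEJ638, NEJ654 and NEJ677, where H19 was low. Igf2 had no such order, with 404 CPM in NEJ723, 435 CPM in NEJ687 and 60.8 to 97.6 CPM in NEJ146.

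Of 424 high-zone genes past the threshold in both parts, H19 left out, NEJ723 was nearer to the low than to the high zone for 358 (84.4%), against 57.3% of the genes of neither zone. NEJ687 was nearer to the high zone for 325 (76.7%), against 61.6%, and the NEJ146 sections for 79.5% to 83.7%, against 73.1% to 74.5%. The H19-poor tissues NEJ638, NEJ654 and NEJ677 were nearer to the high zone for 79.0%, 80.0% and 77.8%, against 71.5%, 71.5% and 72.2% of the genes of neither zone. Of the 396 low-zone genes, NEJ723 was nearer to the low zone for 55.8%, against 57.3% of the genes of neither zone. NEJ687 was nearer to the high zone for 88.4%, the NEJ146 sections for 98.5% to 98.7%, and NEJ638, NEJ654 and NEJ677 for 91.9% to 93.4%, beside the shares of the genes of neither zone given above. These values compare single tissues and have no replicate animals.

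With the spots of NEJ146 and NEJ687 split at each section's own median H19 level, most measured high-zone genes were lower in the spots richer in H19. Most measured low-zone genes were lower there too. At the NEJ634 limit the share in the NEJ634 direction was 55.5% for the high-zone genes in NEJ687 and as low as 36.2% for the low-zone genes in NEJ146. That limit left only 157 spots on the H19-poorer side in NEJ687 and 88 to 105 in the NEJ146 sections. In NEJ687 many low-zone genes had no UMI on that side, and their median ratio was infinite. The shares of NEJ687 at this limit thus rest on very low counts. NEJ723, with 522 H19 UMIs, was too low in H19 to be split. At their own medians, the high-zone genes went in the NEJ634 direction for 30.3% to 33.3% of those measured in the NEJ146 sections and 29.0% in NEJ687. The low-zone genes did so for 67.6% to 74.6% and 61.1% of those measured. Of the 396 low-zone genes only 184 to 210 reached 10 CPM in the NEJ146 sections and 216 in NEJ687, against 403 to 411 of the 424 high-zone genes. Of all genes of at least 10 CPM, 53.6% to 59.1% were higher in the H19-richer spots of the NEJ146 sections and 45.1% in those of NEJ687, so that most genes of NEJ687 already lay in the direction of the low-zone genes. Cldn7 was lower in the H19-richer spots of all 5 of these sections, with log2 ratios of −2.69 to −1.27 in NEJ146 and −1.21 in NEJ687. In NEJ687 (3.66 CPM, 210 UMIs) and NEJ146 section 4 (9.05 CPM) Cldn7 lay under 10 CPM and is not in the shares above. Cdkn1c hardly differed, at −0.07 to 0.13 and 0.26. The H19 contrast in these splits was smaller than in NEJ634, and whether the sections differ from NEJ634 was not tested. NEJ146 has no deposited tissue call that was used here, so its spots of at least 10000 UMIs were taken.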

How the data were processed

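The authors deposited raw counts of UMIs for every gene and spot as unfiltered matrices, with position files that call spots over tissue. The submitters' processing notes name Space Ranger 1.3 and mm10, and the counts were not normalised. Of 31053 gene identifiers 31011 were found in GENCODE M21 on GRCm38, which gave positions. No further filter was set on spots called over tissue, NEJ146 was limited to spots of at least 10000 UMIs, and no doublet caller was run.

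UMIs were summed over the spots of a zone, divided by the zone total and compared as CPM ratios for genes of at least 10 CPM over the tissue, with 1.5-fold as the call. With 1 section there were no replicates, so no p-value was computed. Ratios were recomputed left and right of the median array column. Ratio intervals at 95% condition on the sum of both counts. The named genes were H19, the 12 with the largest ratio on each side past 1.5-fold left and right, up to 4 members of each list described with the largest ratios, the study's panel, the genes within 500 kb of H19, and the 5 most and 5 least correlated genes. Lsp1, Tnni2, Slc22a18, Phlda2, Kcnq1ot1, Saa1, C1qa, Pecam1 and a few further list members were named after their values were seen. Some genes that the rule names are not reported here. The zones, members and gene lists were chosen with earlier results of these data known. Scripts were tested on simulated data. Python 3.11.15, numpy 2.4.6, scipy 1.17.1, pandas 2.3.3, R 4.3.3, edgeR 4.0.16 (TMM) and DESeq2 1.42.0 (median of ratios) were used.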

Additional observations from a re-analysis of the deposited data

Results flagged for a closer look

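Over the 4 adjacent NEJ146 sections 51 quantities were compared, and in 2 of them a section lay far from the other 3. Chance gives about 1 in 20, and 2 of 51 is under that share. The quantities come from the same sections and are not independent. In NEJ146 section 1 the log2 ratio of H19 between spots above and below the section's median H19 level was 0.82, against 0.74 to 0.75 in the other 3. In NEJ146 section 2 that of Vsig4 was 0.27, against −0.06 to −0.04.

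For 8 of the genes with the largest zone ratios in NEJ634, all 4 NEJ146 sections went the opposite way when split at their own median H19 level, and the difference from NEJ634 was not tested. The NEJ146 medians of the log2 ratio were −2.45 for Cyp2a5, −1.56 for Hsd17b6, −1.46 for Pck1, −1.42 for Cyp2c37, −1.16 for Cyp4a14, −1.10 for Sult2a2 and −0.25 for Sult2a1, all high-zone genes in NEJ634. The median was 0.45 for Tmed6, a low-zone gene there. In NEJ687 all 8 had the sign of the NEJ146 sections, from −2.08 for Cyp2a5 to 0.67 for Tmed6.

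H19 stood at 2921 CPM in the spots off tissue of the NEJ634 slide, which entered no comparison of zones.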

How the results depend on the processing

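The 506 genes higher in the H19-high zone and the 499 genes higher in the H19-low zone were recomputed under other settings. Of the low-zone genes, 225 were called at 0.5 times the H19 limit and 328 after TMM. A minimum of 1 CPM gave 1002 and 1366 of 12903 genes and a minimum of 50 CPM 204 and 124. Asking for 1.5-fold above and below the median array row gave 223 and 84, where the lower part held 120 high-zone spots. A 2-fold threshold gave 231 and 138 and a threshold of 25% above equality 980 and 1624. Of lists of at least 5 genes, 4 had a median past 1.5-fold in the low zone, against 1 at 0.5 times the H19 limit and 2 after either TMM or the median of ratios. H19 was 5.52-fold to 8.15-fold higher in the high zone over the settings, all of which chose the spots by H19. The share of called genes higher in the high zone was 65.5% at 0.5 times the limit. With the largest patches alone (added after seeing the map) or spots 3 or more steps from the other patch (added after seeing the profiles), as under the other settings of spots and scaling, 0 of the 506 and 499 genes changed direction. Over 221 named genes 2873 values were recomputed, and over 46 lists 680. A reversal was counted only where the main ratio was past 1.5-fold, and 0 values met this. Changes of sign among smaller ratios were not counted. Of the genes' values 72 fell under the fold, and of the lists' values 13. TMM and the median of ratios add 0.113 and 0.0998 to all log2 ratios, too little to turn a ratio past 1.5-fold.

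Split at the NEJ634 limit, the other tumours gave other shares, with only 157 H19-poorer spots in NEJ687 and 88 to 105 in the NEJ146 sections. In NEJ687 many low-zone genes had no UMI in those spots. Measured low-zone genes went the NEJ634 way for 45.2%, 36.2%, 52.3% and 54.3% in NEJ146 sections 1 to 4 and 30.6% in NEJ687. Measured high-zone genes did so for 27.3% in NEJ146 section 2 and 55.5% in NEJ687. The cause of these shares was not tested. Of all genes of at least 10 CPM, 62.7% to 68.6% were then higher in the H19-richer spots in NEJ146 and 60.6% in NEJ687. No paired analysis was possible because the zones come from 1 section, the result comes from no test, and no replicate number ties animals together. The depth of the zones limits genes under 10 CPM, and no value covers the spread between animals.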

Other observations

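Of 20 acute phase proteins of at least 10 CPM, made by hepatocytes in inflammation, 9 were past 1.5-fold higher in the high zone and 1, Saa3, in the low zone (median log2 ratio 0.32). The largest ratios were those of Saa1 (2.99), Serpina3k (2.87), Saa2 (2.79) and Serpina3m (2.35), all of families with near-identical copies. Of 20 genes of iron and heme 5 were higher in the high zone and 0 in the low zone, with Alas1, the first enzyme of heme synthesis in liver, at 98.0 against 36.4 CPM and the iron hormone Hamp at 1939 against 1155 CPM. Of 18 one-carbon and serine genes 5 were higher in the high zone, led by Bhmt (795 and 252 CPM), Mat1a and Gnmt, which make and use S-adenosylmethionine in hepatocytes.

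Some groups had small medians over the whole section. None of 26 nuclear genes of the respiratory chain passed 1.5-fold (median 0.18), and none of 12 mitochondrial genes did. The mitochondrial median was uneven, at 0.62 left of the median array column, past 1.5-fold, and 0.05 right of it. None of 8 genes of the Myc network passed it (median −0.10). Of 16 hypoxia response genes 3 were higher in the low zone and 0 in the high zone (median −0.09, above 0 after the TMM shift). Of 17 interferon and antigen presentation genes these counts were 3 and 1. The shares of all genes tested were 5.85% in the low and 5.93% in the high zone.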
